A study of Rattus norvegicus with 6 samples.

Results

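The 10 genes described here encode chaperones and folding factors of the endoplasmic reticulum (ER) together with Xbp1 and Herpud1, which act in the same response: Hspa5, Hsp90b1, Calr, Pdia4, Creld2, Manf, Dnajb9, Sdf2l1, Xbp1 and Herpud1. Their mRNA was measured in kidney cortex from male Sprague-Dawley rats on single-colour Agilent arrays, through every non-control probe whose transcript accession carried one of these symbols. Of the 10 genes, 9 had such a probe, and they had 14 of the 61537 probes of the array. Manf had no named probe and was not analysed here. The 3 bromate rats received potassium bromate, an oxidising compound toxic to the kidney tubule, at 100 mg/kg/day over 4 weeks, and the 3 water rats received water over the same 4 weeks. The rats of both groups were bought at 5 weeks of age, and each array held the RNA of 1 replicate. Each sample was bulk cortex, so fewer cells of a type and less RNA per cell cannot be told apart.

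Proteins that enter the ER are folded by chaperones, and an excess of unfolded protein sets off the unfolded protein response. Sensors in the ER membrane carry it: ATF6, which is cut to release a transcription factor, IRE1, which splices the mRNA of Xbp1, and PERK, which slows translation and favours that of Atf4. ATF6 and the spliced form of XBP1 raise the chaperone genes, whereas ATF4 raises genes of amino acid supply and of stress signalling. In the kidney, the cells of the tubules make large amounts of membrane and secreted protein.

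Of the 14 probes, 2 rose with bromate and 0 fell by limma (adjusted p under 0.05), beside 7.19% that rose and 7.6% that fell among all 37781 probes tested (14.8% in either direction). By gene, 1 of the 9 was called, beside 17.3% of all genes with a symbol. The 2 probes were those of Dnajb9, a co-chaperone of the ER, and no other member probe had an unadjusted p under 0.05. The other 8 genes, Hspa5 and Hsp90b1 among them, did not pass the test, and the 95% interval of the difference lay within 2-fold in either direction for all 14 probes, against 78.0% of all probes tested. All 14 differences were above 0, beside 47.7% of all probes tested, and by gene 9 of 9 were, beside 47.9% of all genes with a symbol. These differences are not independent, since the probes share genes, arrays and scaling. Their median was 0.21 on the log2 scale over the probes and 0.15 over the brightest probe of each gene. Under normexp background correction with quantile normalization, however, Hspa5 and Xbp1 were at -0.011 and -0.054. The median over genes was 0.05, 0.07 and 0.08 without water replicate 2, bromate replicate 1 and bromate replicate 2, and 0.23 and 0.24 without water replicate 3 and bromate replicate 3. The same medians over all probes and over all genes with a symbol were both -0.02. Of the PERK branch and the ATF4 targets, 7 of 19 measured genes rose, by 1.45-fold to 5.32-fold.

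The promoters are shown first because the 9 measured genes differ in them. The best known control sequence of ER chaperone genes is the ER stress element (ERSE), CCAAT and CCACG with any 9 bases between them, which ATF6 binds together with the factor NF-Y. A shorter form, ERSE-II (ATTGG and CCACG with any 1 base between them), is known from Herpud1, and XBP1 and ATF6 also bind the core of the unfolded protein response element, TGACGTGG. The 3 strings were searched on both strands of the 250 bases before each annotated transcript start (RefSeq, assembly GRCr8), and all 9 measured genes had an entry. ERSE was found in 5 of the 9 member promoters, those of Hspa5, Hsp90b1, Calr, Creld2 and Xbp1, and in 22 (0.0657%) of all 33469 promoters. ERSE-II was found in Herpud1 and in 14 promoters (0.0418%) in all. The 8-base core was found in none of the 9 and in 174 promoters (0.520%) in all. Pdia4, Dnajb9 and Sdf2l1 held none of the 3 strings in this window. The matches do not overlap one another, and each is a match of letters, not a site shown to be bound. They are printed below on the strand of the motif, with the fixed bases in capitals and the spacer in lower case, so that the spacers can be compared.
Hspa5, chr3:38452973-38452991 (+): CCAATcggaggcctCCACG
Hsp90b1, chr7:23012451-23012469 (-): CCAATcgaaaggagCCACG
Hsp90b1, chr7:23012347-23012365 (+): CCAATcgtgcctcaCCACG
Calr, chr19:40213135-40213153 (-): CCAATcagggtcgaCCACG
Creld2, chr7:121789239-121789257 (-): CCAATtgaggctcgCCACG
Xbp1, chr14:84604558-84604576 (+): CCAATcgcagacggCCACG
Herpud1, chr19:10614821-10614831 (-): ATTGGgCCACG

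**Figure D1:**
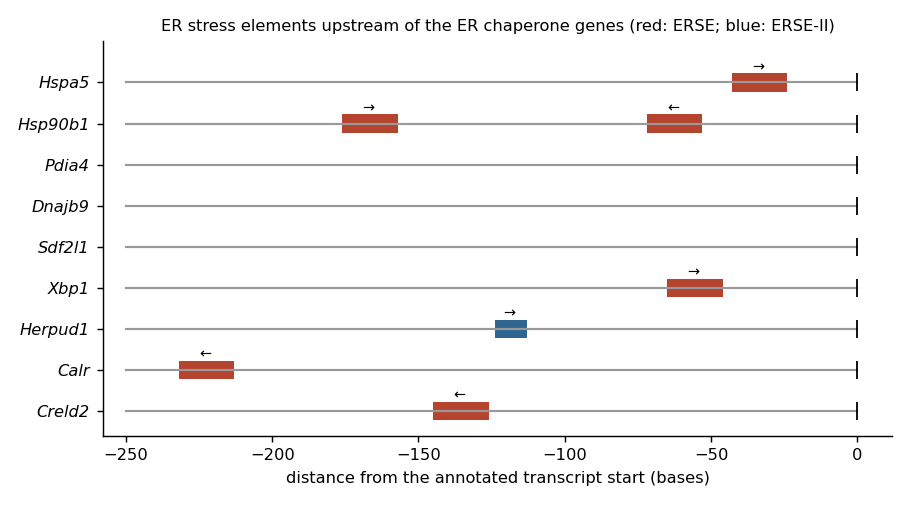
Matches to ERSE (red) and ERSE-II (blue) in the 250 bases before the annotated transcript start of each of the 9 genes, with distance from the start in bases on the horizontal axis and arrows giving the direction of the motif relative to the gene. Hsp90b1 has 2 matches, Pdia4, Dnajb9 and Sdf2l1 have none, and the match nearest to a start is that of Hspa5, from -43 to -25.

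Whole promoters are printed for 3 genes: Hspa5, the chaperone for which the element is best known, Hsp90b1, which has 2 matches in opposite directions, and Dnajb9, the gene that was called and that has no match. Each is read on the strand of the gene, 5′ to 3′, and ends at the base before the transcript start, with the matches in capitals. They lie at chr3:38452766-38453015 (+), chr7:23012294-23012543 (-) and chr6:67002052-67002301 (-) of GRCr8.
Hspa5: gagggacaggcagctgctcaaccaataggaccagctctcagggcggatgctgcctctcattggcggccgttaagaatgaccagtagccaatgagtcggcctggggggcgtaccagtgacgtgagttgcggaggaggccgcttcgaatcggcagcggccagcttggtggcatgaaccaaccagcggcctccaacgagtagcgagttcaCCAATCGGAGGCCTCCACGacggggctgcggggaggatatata
Hsp90b1: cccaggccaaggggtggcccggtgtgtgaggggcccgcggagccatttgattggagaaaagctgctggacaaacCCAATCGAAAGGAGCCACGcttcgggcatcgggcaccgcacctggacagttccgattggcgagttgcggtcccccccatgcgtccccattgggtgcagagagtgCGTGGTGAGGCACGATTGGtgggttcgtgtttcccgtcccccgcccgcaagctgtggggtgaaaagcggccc
Dnajb9: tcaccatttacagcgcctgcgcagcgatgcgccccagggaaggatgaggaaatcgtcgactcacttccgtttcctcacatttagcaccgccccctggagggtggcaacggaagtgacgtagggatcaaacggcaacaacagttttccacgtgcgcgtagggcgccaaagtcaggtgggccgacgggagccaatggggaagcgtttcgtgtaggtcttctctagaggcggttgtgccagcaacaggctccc

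Levels below are log2 of the processed signal over the 75th percentile of the same array, so a level of 0 is the 75th percentile itself. They describe one probe on different arrays and are not set against the levels of another probe. All 14 member probes were well above background on all 6 arrays, and none was saturated.

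**Figure D2:**
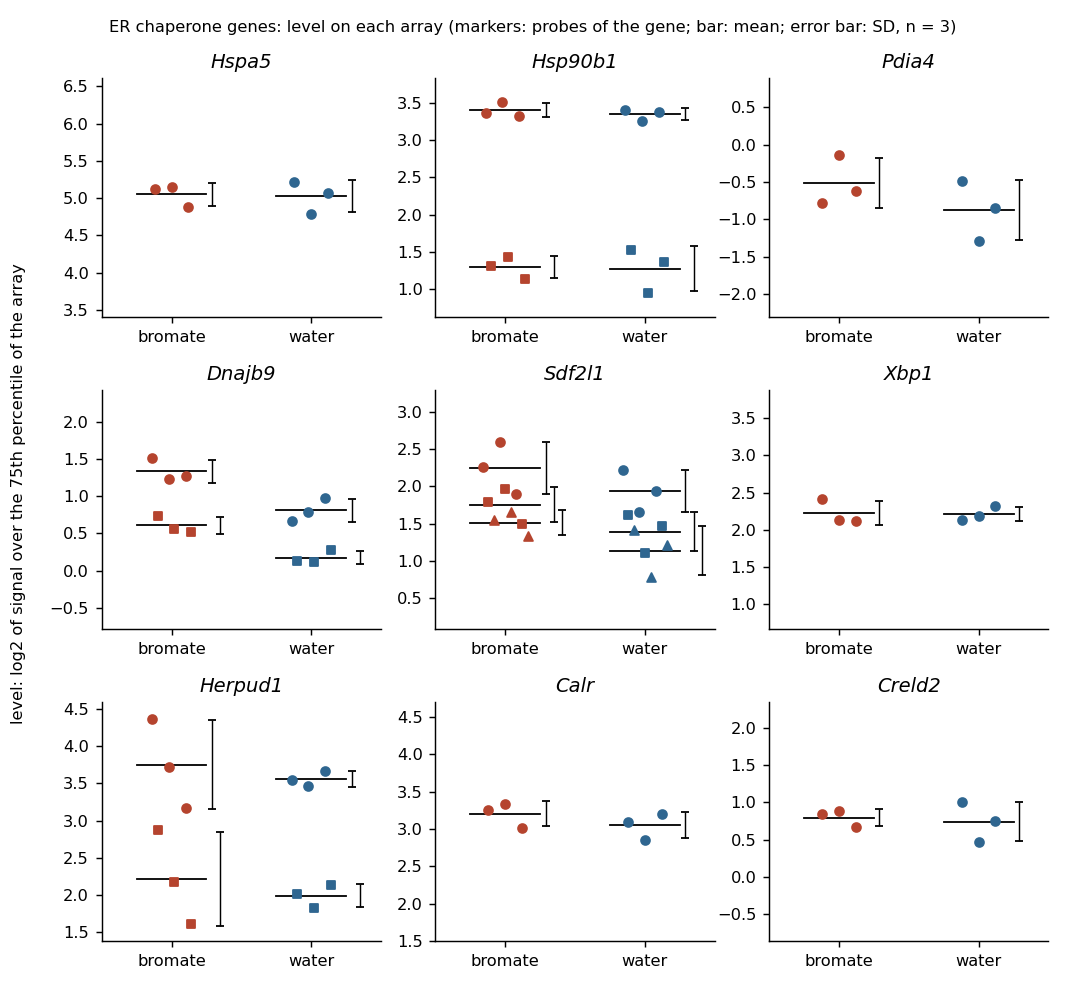
Level of each member probe on each array (vertical axis, log2 of signal over the 75th percentile of the array), with bromate left of water and replicates 1 to 3 from left to right; marker shapes are different probes of a gene, bars are means and error bars are SD (n = 3). The groups overlap in every panel except Dnajb9, where every bromate value of a probe lies above every water value of that probe.

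Hspa5 encodes BiP, the Hsp70 chaperone of the ER, which binds unfolded proteins and holds the stress sensors inactive. Its probe stood at 5.12, 5.15 and 4.87 in bromate replicates 1 to 3, against 5.22, 4.79 and 5.07 in water replicates 1 to 3. The highest and the lowest value were both from water rats, and the bromate values lay between them. The difference was 0.02 ± 0.14 (log2, SE, n = 3 each; adjusted p = 0.929), a fold of 1.02 with a 95% interval of 0.797 to 1.29.

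Hsp90b1 encodes GRP94, the Hsp90 chaperone of the ER, which folds a limited set of receptors and secreted proteins. Its brighter probe stood at 3.37, 3.51 and 3.33 in bromate rats, against 3.41, 3.26 and 3.38 in water rats. Its other probe stood at 1.31, 1.44 and 1.14 in bromate rats, against 1.53, 0.94 and 1.36 in water rats. On both probes the groups overlapped, and water replicate 2 was the lowest of the 6 arrays. The differences were 0.05 ± 0.09 (adjusted p = 0.710) and 0.02 ± 0.17 (adjusted p = 0.950), and the brighter probe had the narrowest interval of the 14, from 0.890-fold to 1.21-fold.

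Calr encodes calreticulin, a lectin chaperone that holds newly made glycoproteins and stores calcium. Its probe stood at 3.25, 3.34 and 3.02 in bromate rats, against 3.09, 2.86 and 3.20 in water rats. Bromate replicates 1 and 2 lay above all the water values, and bromate replicate 3 lay inside their range. The difference was 0.15 ± 0.13 (adjusted p = 0.472), with an interval of 0.885-fold to 1.39-fold.

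Pdia4 encodes a protein disulfide isomerase, which makes and rearranges disulfide bonds. Its probe stood at -0.78, -0.13 and -0.62 in bromate rats, against -0.48, -1.29 and -0.85 in water rats. The bromate mean was higher, but water replicate 1 lay above 2 of the bromate values. The difference was 0.36 ± 0.26 (adjusted p = 0.378), and the interval of 0.828-fold to 1.99-fold does not separate no change from nearly a doubling.

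Creld2 encodes a secreted ER protein with disulfide isomerase activity. Its probe stood at 0.84, 0.88 and 0.66 in bromate rats, against 1.01, 0.47 and 0.74 in water rats. The bromate values lay inside the range of the water values. The difference was 0.05 ± 0.15 (adjusted p = 0.838; interval 0.799-fold to 1.35-fold).

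Dnajb9 encodes ERdj4, a co-chaperone that brings misfolded proteins to BiP and to degradation. Its brighter probe stood at 1.51, 1.23 and 1.26 in bromate rats, against 0.67, 0.78 and 0.97 in water rats. Its other probe stood at 0.73, 0.56 and 0.52 in bromate rats, against 0.13, 0.12 and 0.28 in water rats. On each probe the lowest bromate value lay above the highest water value, which was so for 2 of the 14 member probes and for 41.1% of all probes tested, and by gene for 1 of 9 and for 44.2%. The brighter probe rose by 0.53 ± 0.12 on the log2 scale (adjusted p = 0.0412), which is 1.44-fold (95% interval 1.17 to 1.78). The other rose by 0.43 ± 0.10 (adjusted p = 0.0370), which is 1.35-fold (1.15 to 1.59). The call was lost when any 1 array was left out, with adjusted p between 0.0627 (without water replicate 3) and 0.121 (without water replicate 2) for the brighter probe and between 0.0697 (without water replicate 3) and 0.116 (without water replicate 2) for the other. The differences then ran from 0.44 to 0.61 and from 0.37 to 0.48. Water replicate 1 was on a slide of its own, and on the slide with the other 5 arrays the differences were 0.46 (adjusted p = 0.0830) and 0.41 (adjusted p = 0.0754).

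Sdf2l1 encodes a partner of the ER Hsp40 proteins that keeps client proteins soluble. Its brightest probe stood at 2.26, 2.60 and 1.90 in bromate rats, against 2.22, 1.66 and 1.94 in water rats. The second probe stood at 1.80, 1.97 and 1.5 in bromate rats, against 1.61, 1.10 and 1.47 in water rats. The dimmest probe stood at 1.56, 1.65 and 1.33 in bromate rats, against 1.42, 0.78 and 1.21 in water rats. The 3 probes ordered the arrays in nearly the same way, with bromate replicate 2 highest and water replicate 2 lowest on each, and the groups overlapped on each. Their differences were 0.31 ± 0.22, 0.36 ± 0.18 and 0.38 ± 0.19, and their adjusted p 0.378, 0.223 and 0.216.

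Xbp1 encodes the transcription factor that IRE1 activates by splicing. Its probe stood at 2.42, 2.14 and 2.13 in bromate rats, against 2.13, 2.18 and 2.32 in water rats. The bromate values spanned the water values on both sides. The difference was 0.01 ± 0.11 (adjusted p = 0.951; interval 0.831-fold to 1.22-fold), and the files do not say whether the probe tells spliced from unspliced mRNA.

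Herpud1 encodes a membrane protein of ER-associated degradation and is a target of both the ATF6 and the PERK branch. Its brighter probe stood at 4.36, 3.72 and 3.16 in bromate rats, against 3.55, 3.46 and 3.67 in water rats. Its other probe stood at 2.87, 2.18 and 1.61 in bromate rats, against 2.01, 1.83 and 2.13 in water rats. On both probes bromate replicate 1 was the highest of the 6 arrays and bromate replicate 3 the lowest, so that the brighter probe had an SD of 0.60 in bromate rats, against 0.11 in water rats. The differences were 0.19 ± 0.29 (adjusted p = 0.694) and 0.23 ± 0.31 (adjusted p = 0.650). Without bromate replicate 1 they were -0.12 and -0.10.

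**Figure D3:**
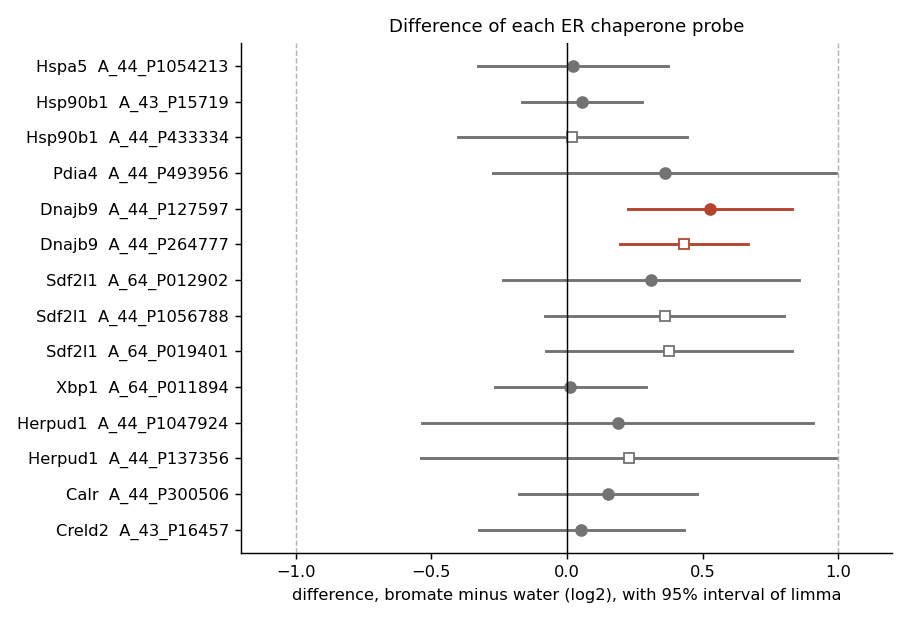
Difference between bromate and water for each member probe (horizontal axis, log2, bromate minus water) with its 95% interval; filled circles are the brightest probe of a gene, open squares its other probes, red is past the test, and dashed lines mark 2-fold. All 14 points lie above 0 (Hspa5 and Xbp1 fall below it under normexp), and the intervals of the 2 Dnajb9 probes, from 0.23 to 0.83 and from 0.20 to 0.67, are the ones that leave out 0.

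Where a gene had several probes, they gave nearly the same difference. The gap between the highest and lowest difference of a gene was 0.04 for Hsp90b1, 0.10 for Dnajb9, 0.07 for Sdf2l1 and 0.04 for Herpud1, in each case below the SE of every probe of that gene. The range over the 3 water rats was wider than the difference between the groups in 8 of the 9 genes (88.9%), beside 53.9% of all genes with a symbol, called or not. The 8 were the genes without a call. The median range of the 9 genes was 0.29 over the bromate rats and 0.35 over the water rats, against 0.25 and 0.25 over all genes with a symbol.

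Most of the 9 genes shared an order of the rats within a group. This pattern was chosen for description after its values were seen, and the members share the arrays and their scaling. Water replicate 2 was the lowest of the 3 water arrays in 7 of 9 genes, and in 36.2% of 10678 genes measured on all arrays. Bromate replicate 3 was the lowest of the bromate arrays in 7 of 9 and in 31.6% of all, and bromate replicate 2 was the highest in 6 of 9 and in 27.0% of all. Averaged over the 9 genes, the deviation from the mean of each gene was 0.19, 0.20 and -0.11 in bromate replicates 1 to 3, against 0.02, -0.28 and -0.02 in water replicates 1 to 3. Bromate replicate 3 therefore lay below water replicate 1 and water replicate 3, and the groups overlapped. Under quantile normalization the counts were 7, 6 and 6 of 9, and under normexp background correction they were 6, 6 and 6 of 9.

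**Figure D4:**
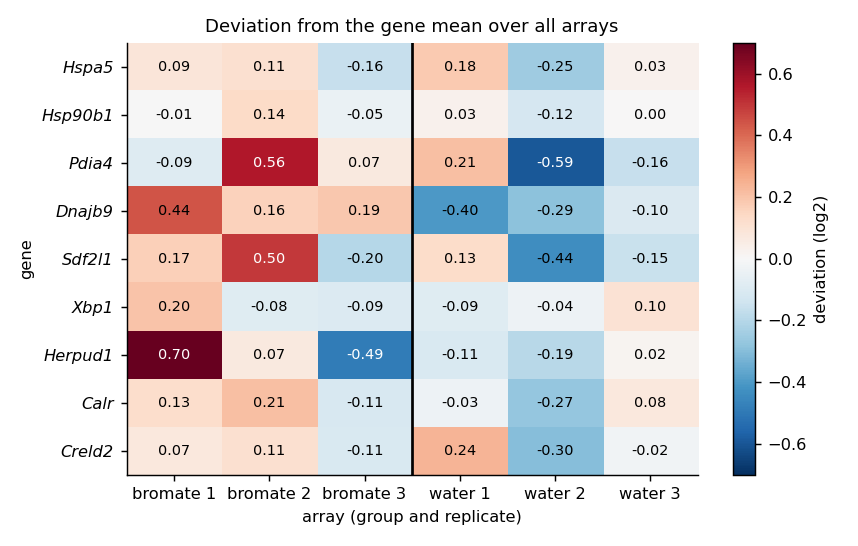
Deviation of each member gene (brightest probe, rows) from its own mean over the 6 arrays (columns, log2), with bromate arrays left of water arrays; red is above the mean of the gene and blue below. The column of water replicate 2 is blue in most rows.

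The genes whose profile over the 6 arrays was most like that of Hspa5 were found by the root mean square (RMS) log2 difference between gene-centred profiles, over 10677 genes. Hspa5 itself had an RMS of 0.154 around its mean. The 5 nearest genes outside the members were Tbk1 (0.0350), Dnajb11 (0.0416), Erp29 (0.0445), Phospho2 (0.0480) and Prkcsh (0.0497). Dnajb11 is an Hsp40 partner of BiP, Erp29 an ER folding factor and Prkcsh a subunit of the glucosidase that trims glycans in the ER. Tbk1 is a kinase of innate immune signalling. Dnajb11, for example, stood at 2.47, 2.52 and 2.25 in bromate rats, against 2.55, 2.23 and 2.37 in water rats, the same order of the 6 arrays as for Hspa5. Among the members, Creld2 had rank 4 (0.0447), Hsp90b1 rank 142 (0.102) and Calr rank 162 (0.104). The other members were further away: Xbp1 had rank 2506 (0.172), Sdf2l1 rank 3623 (0.196) and Pdia4 rank 6364 (0.273). Herpud1 had rank 7227 (0.310) and Dnajb9 rank 7438 (0.320). Of the 20 nearest genes, 5 (25.0%) were members or genes of the ER lists below, which make up 1.18% of the genes compared, and of the 100 nearest, 6 (6.0%) were. These are descriptions over 6 arrays that share their scaling.

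The other genes of the response were taken from 7 lists. Of the 120 measured of 132 genes, 11 (9.17%) rose and 2 fell, beside 8.76% that rose and 8.54% that fell among all 11572 genes with a symbol, and their median difference was 0.06. Without the PERK branch and ATF4 targets, 4 of 101 genes rose (3.96%) and 2 fell.

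Among sensors and transcription factors, 9 of 10 were measured, 0 rose and 2 fell by limma, with 4 at an unadjusted p under 0.05 (1 rose, Atf4, under the 4 alternatives given below). Ern1, which encodes IRE1, was not measured. The brightest Atf6 probe stood at 1.46, 1.40 and 1.33 in bromate rats, against 1.2, 1.31 and 1.33 in water rats (difference 0.12 ± 0.08, adjusted p = 0.378). The dimmer Atf6 probes went the other way, with differences of -0.22 ± 0.10 and -0.06 ± 0.09 (adjusted p = 0.170 and 0.679). Eif2ak3, which encodes PERK, stood at -0.05, -0.02 and -0.06 in bromate rats, against -0.22, -0.10 and -0.18 in water rats (difference 0.12 ± 0.08, adjusted p = 0.306). The 2 that fell were Creb3l2 and Creb3l3, which encode membrane-bound transcription factors cut like ATF6. Creb3l3 stood at 2.15, 1.26 and 1.95 in bromate rats, against 2.78, 2.84 and 2.93 in water rats, and fell by 1.06 ± 0.23 on the log2 scale (adjusted p = 0.0360). Creb3l2 stood at 2.10, 1.98 and 2.04 in bromate rats, against 2.75, 2.81 and 2.55 in water rats, and fell by 0.67 ± 0.10 (adjusted p = 0.0135). The Creb3l3 call was lost without water replicate 1, 2 or 3 or bromate replicate 3 (adjusted p = 0.0708, 0.104, 0.101 and 0.0751). The Creb3l2 call was lost without water replicate 2 or bromate replicate 2 (adjusted p = 0.0536 and 0.0547).

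Of the PERK branch and ATF4 targets, 7 of 19 rose, 0 fell, and the median difference was 0.53. Of the 19 differences, 13 were above 0, and 11 genes had an unadjusted p under 0.05. Asns, asparagine synthetase, stood at 1.6, 1.42 and 1.74 in bromate rats, against -0.69, -0.84 and -0.95 in water rats. It rose by 2.41 ± 0.12 on the log2 scale, 5.32-fold (adjusted p = 0.000931), and no group of values came near the other. Mthfd2, a mitochondrial folate enzyme, stood at 0.22, -0.31 and 0.04 in bromate rats, against -1.80, -2.0 and -1.81 in water rats, and rose 3.62-fold (1.86 ± 0.15, adjusted p = 0.00275). Nupr1, a stress-induced nuclear protein, stood at 1.84, 0.59 and 1.59 in bromate rats, against -1.31, -0.37 and -1.03 in water rats, and rose 4.74-fold (2.24 ± 0.39, adjusted p = 0.0203). Trib3, a pseudokinase that restrains this branch, stood at -1.94, -3.08 and -2.35 in bromate rats, against -4.10, -4.00 and -4.14 in water rats, and rose 3.08-fold (1.62 ± 0.28, adjusted p = 0.0203). The Asns and Mthfd2 calls held without any 1 array. The Nupr1 call was lost without water replicate 3, bromate replicate 1 or bromate replicate 3 (adjusted p = 0.0660, 0.0525 and 0.0632), and the Trib3 call without water replicate 2, water replicate 3 or bromate replicate 3 (adjusted p = 0.0681, 0.0656 and 0.0633). Under the 11 alternatives other than leaving out an array, the Trib3 difference ran from 0.98 to 1.63. Its call was lost under 2 of these 11 (highest adjusted p = 0.0662). The count of genes of this list that rose was 4 without water replicate 2 or water replicate 3.

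The other 3 that rose, named after their values were seen, were Eif4ebp1, Ppp1r15a and Cebpg. They rose by 1.30 ± 0.16, 0.79 ± 0.15 and 0.53 ± 0.08 (adjusted p = 0.00844, 0.0234 and 0.0138). Which of these 3 kept its call with 1 array left out is not given here. Ddit3, which encodes CHOP, stood at 2.72, 2.70 and 2.75 in bromate rats, against 3.03, 2.70 and 2.74 in water rats (difference -0.10 ± 0.11, adjusted p = 0.566). Phgdh, Psat1 and Slc3a2 were also below 0, at -0.27, -0.11 and -0.10, and did not pass (adjusted p = 0.168, 0.710 and 0.576). Atf4 stood at 5.26, 4.90 and 4.79 in bromate rats, against 4.59, 4.47 and 4.23 in water rats. The groups did not overlap, but the difference of 0.56 ± 0.16 did not pass (adjusted p = 0.0692). It passed under quantile normalization (adjusted p = 0.0459), under normexp (0.0196), with an intensity trend and robust variance (0.0441) and with array weights (0.0423). The probes of Chac1, a glutathione-degrading enzyme, disagreed: the brighter one, which stands for the gene, had a difference of 0.20 ± 0.10 (adjusted p = 0.217), and the dimmer one rose by 3.21 ± 0.28 (adjusted p = 0.00309).

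The remaining lists hold genes that work beside the members. Of the other ER chaperones and co-chaperones, 13 of 16 were measured, 0 rose and 0 fell, with 4 at an unadjusted p under 0.05 and a median of -0.04; 1 rose without water replicate 1 and with array weights. The brightest, Cnpy2, differed by -0.04 ± 0.08 (adjusted p = 0.748). Hyou1, a large Hsp70-like chaperone, stood at 3.11, 3.03 and 2.77 in bromate rats, against 2.74, 2.52 and 2.67 in water rats (difference 0.33 ± 0.12, adjusted p = 0.117). Of ER-associated degradation genes, 19 of 22 were measured, 0 rose and 0 fell, with 3 at an unadjusted p under 0.05 and a median of 0.08. With array weights or leaving out water replicate 1, 2 of them rose, and 1 did under normexp, under the percentile over probes above background on all arrays and with the filter on all 6 arrays. Derl3, a channel component of this pathway, differed by 0.95 ± 0.29 (adjusted p = 0.0771) and passed without water replicate 1 (1.26, adjusted p = 0.0184), with array weights and under normexp. The brightest, Ubxn4, differed by 0.14 ± 0.13 (adjusted p = 0.487).

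Of the disulfide and proline isomerases, 2 of 20 measured genes rose and 0 fell (median 0.11). Ero1a, the oxidase that recharges the disulfide isomerases, stood at 0.53, 0.50 and 0.62 in bromate rats, against -0.28, -0.04 and -0.03 in water rats, and rose 1.59-fold (0.67 ± 0.10, adjusted p = 0.0140). Tmx1, a membrane-bound thioredoxin, rose by 0.58 ± 0.10 (adjusted p = 0.0185). Ero1a lost its call without bromate replicate 2 (adjusted p = 0.0501), and Tmx1 without water replicate 2, water replicate 3 or bromate replicate 2 (adjusted p = 0.0711, 0.0578 and 0.0649). Of translocation and glycosylation genes, 1 of 22 rose and 0 fell (median 0.08). It was Sec11a, a subunit of the signal peptidase, at 3.63, 3.73 and 3.65 in bromate rats, against 3.07, 3.05 and 3.10 in water rats (0.60 ± 0.07, adjusted p = 0.00833). The dimmer Ssr1 probe also rose (0.46 ± 0.09, adjusted p = 0.0255). The brighter Ssr1 probe, which stands for the gene, did not pass (0.16 ± 0.09, adjusted p = 0.275).

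Of vesicle coats and KDEL receptors, 1 of 20 rose and 0 fell (median -0.01). Kdelr3, a receptor that returns escaped chaperones to the ER, stood at -3.06, -2.53 and -2.38 in bromate rats, against -3.74, -3.78 and -3.97 in water rats. It rose 2.25-fold (1.17 ± 0.19, adjusted p = 0.0167). Its difference was 0.47 under normexp (adjusted p = 0.0592), and its call was lost without water replicate 2, water replicate 3 or bromate replicate 2 (adjusted p = 0.0607, 0.0577 and 0.0631). These counts rest on the brightest probe of each gene. The dimmer Sec31a probes fell, with differences of -0.35 and -0.37 (adjusted p = 0.0430 and 0.0408), and the brightest was at -0.21 (adjusted p = 0.149). A dimmer Sec24a probe rose by 0.43 (adjusted p = 0.0304), and the brightest was at 0.00 (adjusted p = 0.994).

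**Figure D5:**
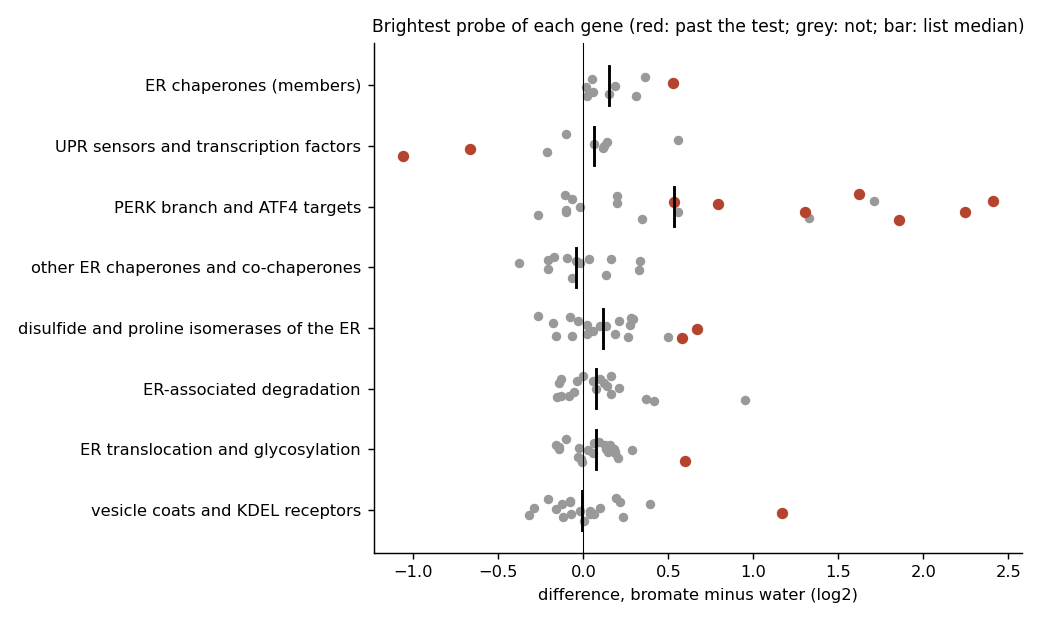
Difference between bromate and water (horizontal axis, log2, bromate minus water) for the brightest probe of each measured gene, by list; red points passed the test, grey points did not, and black bars are list medians. The median of the 9 ER chaperone genes is 0.15 and that of the PERK branch and ATF4 targets is 0.53, and Atf4 and Ddit3 are drawn in 2 lists.

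Genes outside these lists with an ERSE match in the same window were set beside the members. With the 4 of the lists (Canx, Derl3, Dnajc3 and Ero1b, none of which passed), 11 genes other than members were measured. Of the 11, 2 rose (18.2%, beside 8.76% of all genes with a symbol) and 1 fell (beside 8.54%). Their median difference was 0.47, beside -0.02 over all genes with a symbol. The 2 that rose were Zfand2a (0.89 ± 0.12, adjusted p = 0.00978) and Zfp57 (0.86 ± 0.20, adjusted p = 0.0404), and Ankmy2 fell by 0.40 ± 0.08 (adjusted p = 0.0280), all 3 named after their values were seen. Of 9 measured genes outside the members with ERSE-II, 0 rose by limma and 1, Prkcz, fell, with a median of -0.08. Of 69 with the 8-base core, 8 rose (11.6%) and 6 fell, with a median of 0.03. The 5 members with ERSE had differences from 0.01 (Xbp1) to 0.15 (Calr), and none of them passed.

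Markers of several kidney cell types moved with bromate beside these values. Levels of a marker list are given as signals over the 75th percentile, summed over its measured genes, so the brightest genes weigh most. These were Spp1 in the injured tubule list in bromate rats and Umod in the list for thick limb and distal tubule. The injured tubule list (6 of 7 measured, 4 rose, 5 with a positive difference) summed to 259, 316 and 336 in bromate rats, against 21.3, 20.7 and 26.5 in water rats. The list for thick limb and distal tubule cells (7 measured, 6 fell) summed to 106, 59.4 and 71.9 in bromate rats, against 535, 430 and 308 in water rats. The convoluted proximal tubule list, the main cell type of the labelled tissue (8 measured, 3 fell), summed to 840, 754 and 764 in bromate rats, against 1070, 1071 and 1081 in water rats. Of the lists of the straight proximal tubule, collecting duct, podocyte and endothelium, 0 of 9, 3 of 6, 1 of 5 and 1 of 6 fell and 0 rose. In the straight tubule list 1 of 9 had a positive difference, with a median of -0.43. The collecting duct genes that fell were Slc26a4, Atp6v1g3 and Slc4a1. Aqp2, Aqp3 and Scnn1g, at 0.40, 0.03 and -0.53, did not pass. Of the macrophage, fibroblast and T cell lists, 1 of 6, 0 of 6 and 0 of 5 rose and 0 fell. The part of these cell types in the Dnajb9 and ATF4 target results was not tested.

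Plasma cells hold much ER. Of their list, joined with B cells, 7 of 15 genes were measured, 4 had a positive difference, 0 rose and 1 fell by limma, with 5 at an unadjusted p under 0.05. The one that fell was Pax5, a B cell transcription factor (difference -0.92 ± 0.22, adjusted p = 0.0439). Among the genes also used by secretory cells, Derl3, Sdc1 and Fkbp11 had differences of 0.95 ± 0.29, 0.48 ± 0.18 and 0.26 ± 0.11 (adjusted p = 0.0771, 0.133 and 0.144), given here after their values were seen. The list summed to 6.97, 9.24 and 8.80 in bromate rats, against 7.14, 7.85 and 8.45 in water rats, with overlap. Their defining genes Jchain and Mzb1 were not measured.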

How the data were processed

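Total RNA of renal cortex, 3 bromate and 3 water rats (biological replicates per the labels), was labelled with Cy3 and hybridised to 6 Agilent arrays. Feature Extraction 10.7 (per the submitters' processing notes) wrote the processed signal, an intensity with its background subtracted but left unscaled, as the file headers (deposited with each array) show. The authors also deposited a table of linear ratio values: each column equalled the processed signal over the 75th percentile of its array to within 0.241% to 0.415% over values of at least 0.05, uncentred and in the direction of the signal. Its medians were 0.1025, 0.1055 and 0.1026 for bromate replicates 1 to 3 and 0.1043, 0.1049 and 0.1031 for water replicates 1 to 3. The labels state neither.

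Here log2 processed signals were reduced by the array's 75th percentile. Probes that 3 or more of the 6 arrays called well above background were tested with limma 3.58.1 (lmFit, eBayes; R 4.3.3), with Benjamini-Hochberg adjustment over all 37781 probes. Outlier spots (0 to 4 an array) were left out. The brightest probe stands for a gene. Per array, 35621 to 38801 of 61537 probes were well above background, and the number of arrays limits the precision. Accessions in the scanner files named 28206 probes (45.8%) with 1 symbol, 0 with several and 33331 with none, through RefSeq's table. The arrays are annotated on rn4, and only promoters carry GRCr8 coordinates. Slide and scan coincide: 1 slide held water replicate 1 and the other the remaining 5 arrays.

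Named were all member probes, up to 4 called genes per list with the largest change or, with none called, the brightest, and the 5 genes most like Hspa5. Atf6, Eif2ak3, Atf4, Ddit3, Phgdh, Psat1, Slc3a2, Chac1, Hyou1, Derl3, Sec31a, Sec24a, Ssr1, Aqp2, Aqp3, Scnn1g and the motif matches are outside that rule, chosen after their values were seen. The members and lists were chosen with earlier results of these data known. The fit was tested on simulated data. Alternatives were other scalings, filters, variance models and blocks, and each array left out in turn.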

Additional observations from a re-analysis of the deposited data

How the results depend on the processing

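Both Dnajb9 probes kept their direction under every alternative run, and their call under 8 of the 11 alternatives other than leaving out an array. These 11 are not independent checks. Keeping outlier spots left the Dnajb9 values unchanged, and the deposited table holds nearly the same values as the main fit. The slide block gave the same fit as leaving out water replicate 1. By limma, 0 member probes and 0 member genes rose without the filter on dim probes (adjusted p = 0.107 and 0.106), with slide as a block (0.0830 and 0.0754), with the replicate number as a block (0.116 and 0.105) and without any 1 array (0 to 0), where more dim probes, fewer arrays or fewer residual degrees of freedom entered the fit. Of all probes, 1091 rose and 1023 fell without the filter, 829 and 757 with the replicate block, and 871 to 2064 and 785 to 2310 with 1 array left out. Same-numbered arrays of the groups did not deviate together (correlations 0.0561, 0.0734 and -0.0910). With 3 rats a group, these correlations cannot decide whether the numbers pair the rats. Genes of the 7 lists rose in number to 17 with array weights and dropped to 7 without the filter and 3 with the replicate block (6 to 13 with 1 array left out). Those that fell numbered 4 under normexp, an intensity trend with robust variance or array weights, 1 without the filter or with the slide block, and 0 with the replicate block (0 to 2 with 1 array left out). Small differences changed sign: Hspa5 was -0.011 under normexp and -0.095 to 0.12 with 1 array left out. Xbp1 was -0.054 under normexp, -0.056 with array weights, -0.028 with the slide block and -0.083 to 0.067 with 1 array left out. With 1 array left out, the dimmer Hsp90b1 probe ran from -0.15 to 0.15, Creld2 from -0.082 to 0.19 and the Herpud1 probes from -0.12 to 0.48 and from -0.10 to 0.53. Ddit3 was 0.0034 with the slide block and -0.16 to 0.0034 with 1 array left out. The cause was not tested. All member probes were well above background on all 6 arrays. No test separated the limit set by 3 rats a group from that set by signal over background.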
